A study of Mus musculus with 6 samples.

Results

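The cardiac calcium store genes Ryr2, Casq2, Atp2a2, Pln and Sln are 5 of the 21631 protein-coding genes on the 20 chromosomes that the deposited peak lists cover. They were examined for nearby peaks in a ChIP-seq pull-down of GLI3R, the repressor form of the Hedgehog pathway transcription factor GLI3. A peak was assigned to a gene when its summit, the position of strongest enrichment, lay within 100 kb of the gene's interval on mm10, with 0 kb for a summit inside the gene. The genes were chosen by peak values already seen in these data, above all an interval near Ryr2 that both lists hold, so the counts below are descriptions and none of them is a test.

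The cells were cardiac progenitors derived from mouse embryonic stem cells of the A2Lox.cre strain and harvested on day 6. All came from the cell line GLI3R-FTA, the only one the labels name, so the untreated cells carry the same tagged GLI3R construct as the induced cells. Induced cells were given 500 ng/ml doxycycline for 24 h from day 5, and untreated cells were given none. Untreated peaks therefore come from a pull-down without induction, and whether peaks found in both lists mark GLI3R binding was not tested. The tagged protein was captured through its Avi-tag on streptavidin beads, in 2 pull-downs per condition, and 1 input library was made per condition. The protocol text in the labels speaks of GLI1 where the sample titles speak of GLI3R, and the titles were followed. The values are 1 peak list per condition, with 3640 peaks after doxycycline and 4379 without it, so no peak has a replicate error and the conditions could not be compared by a test. The lists hold no expression values, and whether these progenitors transcribed the calcium store genes or heart markers was not analysed here.

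A heart muscle cell keeps calcium in its sarcoplasmic reticulum and contracts when that store is opened. The ryanodine receptor encoded by Ryr2 is the release channel, and calsequestrin 2, encoded by Casq2, binds calcium inside the store. The pump SERCA2, encoded by Atp2a2, refills the store, and the small membrane proteins phospholamban (Pln) and sarcolipin (Sln) restrain the pump. Hedgehog signalling acts on heart progenitors before they differentiate, and GLI3R represses the targets of the pathway while ligand is absent.

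Within 100 kb, 4 of the 5 genes had a doxycycline summit, and 2 had an untreated summit. Ryr2 and Sln had peaks in both lists, Casq2 and Pln in the doxycycline list, and Atp2a2 in neither. Over all 21631 genes the share with a summit within reach was 31.7% after doxycycline and 30.6% for the untreated list, and 10.4% had one in both. The 5 genes drew 6 doxycycline peaks and 4 untreated peaks. The peak pattern split by strength, since the intervals of Ryr2 and Sln that both lists hold stood between 27.1-fold and 31.2-fold while the remaining peaks of the 5 genes lay between 3.78-fold and 10.7-fold. The fold enrichment, the −log10 q and the width of a peak are the authors' own values from their peak caller.

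**Figure D1:**
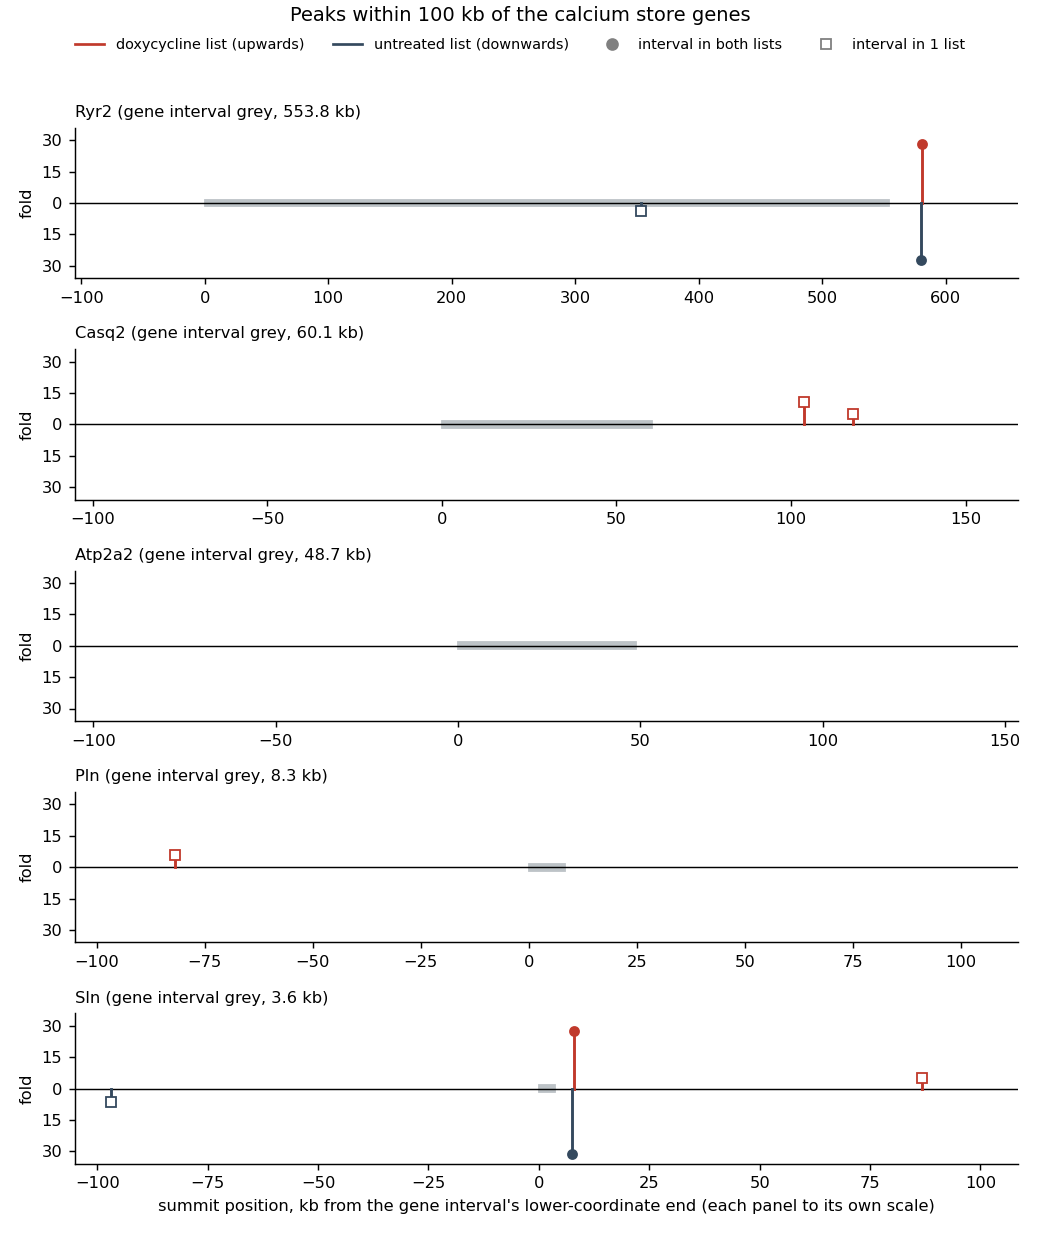
Summits within 100 kb of each calcium store gene, with the position in kb from the gene interval's lower-coordinate end on the x axis and the authors' fold enrichment on the y axis (doxycycline list upwards in red, untreated list downwards in dark blue, filled circles for intervals in both lists, open squares for intervals in 1 list). The tall stems beside Ryr2 and Sln appear in both directions, the stems near Casq2 and Pln point upwards only, and Atp2a2 has none.

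Ryr2, the calcium release channel, lies on chromosome 13 from 11553099 to 12106945 and is read from the minus strand, so its start is at the higher coordinate. Upstream of that start, the doxycycline list held an interval of 2989 bp (chr13:12131303-12134291) with a best summit 27.1 kb from the gene at 28.2-fold, where the pileup was 38 fragments and the −log10 q was 57.3. The untreated list held an interval of 2963 bp at the same place (chr13:12131282-12134244), whose best summit, 26.3 kb from the gene, reached 27.1-fold with a −log10 q of 54.8 and again 38 fragments. Ryr2 was the closest protein-coding gene to the best summit in both lists, and Mtr also lay within 100 kb of it. The pileup is the number of fragments over a summit, worked back from the authors' fold and p. Its exact 95% Poisson interval was 26.9 to 52.2 fragments in each list, which covers counting error only. The interval was present with and without doxycycline, at close deposited folds and with the same pileup at the best summit. Pileups were not scaled for library depth between the lists, so equal counts do not show equal strength. The number of fragments that the peak caller most often expected also differed, at 0.368 after doxycycline and 0.272 without it.

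The Ryr2 interval is not a sharp peak. It carried 9 summits in each list, against 1 summit for 3594 of the 3640 doxycycline peaks and 4357 of the 4379 untreated peaks. Along the interval the doxycycline pileups were 34, 33, 38, 28, 32, 29, 28, 28 and 38 fragments, in order of coordinate. The untreated pileups were 33, 28, 33, 27, 35, 34, 38, 22 and 31 fragments. No summit stood above 38 fragments, the ranges of the lists overlap, and the medians were 32 fragments after doxycycline and 33 without it. The pileup between summits is not known from the lists, and the counts were not scaled for library depth. Neighbouring summits stood a median of 313 bp apart after doxycycline and 245 bp apart without it. A doxycycline summit lay a median of 79 bp, and at most 201 bp, from the nearest untreated one, while the edges of the interval were 21 bp and 47 bp apart between the lists.

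**Figure D2:**
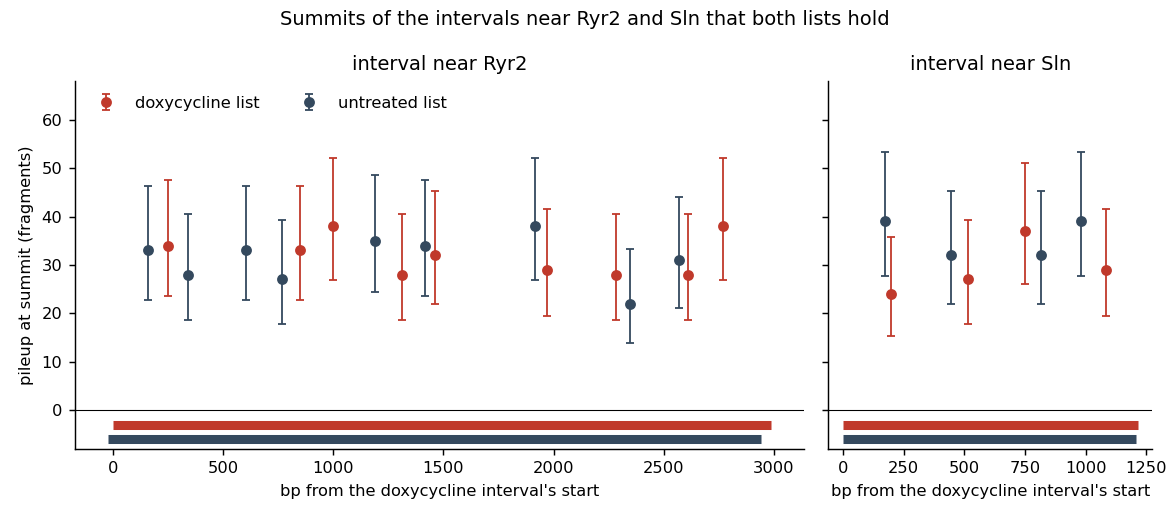
Pileup at each summit (fragments, y axis) against its distance in bp from the start of the doxycycline interval (x axis) for the intervals near Ryr2 (left) and Sln (right), with exact 95% Poisson intervals as error bars and the extent of each list's interval as bars under the axis. Pileups of the doxycycline list (red, 24 to 38 fragments) and of the untreated list (dark blue, 22 to 39 fragments) overlap along both intervals.

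The untreated list held a further Ryr2 peak, the only peak inside any of the 5 genes. It was 152 bp wide (chr13:11906076-11906227), had 4 fragments, the smallest pileup in the untreated list, and reached 3.78-fold with a −log10 q of 1.44. By fold it ranked 4330th of 4379. No doxycycline summit lay inside Ryr2, although the gene spans 553.8 kb. The nearest doxycycline summit beyond 100 kb was 201.3 kb away, and the nearest untreated one 190.04 kb away.

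Casq2, the calcium buffer of the store, lies on chromosome 3 from 102086415 to 102146514 on the plus strand. It had 2 doxycycline peaks, both beyond its downstream end and both inside the neighbouring gene Vangl1, which encodes a membrane protein of planar cell polarity. The stronger was 248 bp wide (chr3:102190066-102190313), 43.7 kb from Casq2, and had 14 fragments (exact 95% Poisson interval 7.65 to 23.5) at 10.7-fold with a −log10 q of 13.4. The weaker was 184 bp wide (chr3:102204020-102204203), 57.6 kb from Casq2, and had 6 fragments (2.20 to 13.1) at 5.12-fold. The stronger peak ranked 176th by fold among the 3640 doxycycline peaks, and the weaker lay below the list's median of 5.50-fold. The untreated list had no summit within 100 kb of Casq2, and its nearest was 159 kb away. A summit of 4 fragments could enter the untreated list, so absence means that this threshold was missed.

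Atp2a2, the calcium pump gene, lies on chromosome 5 from 122453513 to 122502225 and had no summit within 100 kb in either list. Its nearest doxycycline summit was 363.5 kb away and its nearest untreated summit 322.1 kb away. Genes without a summit within reach were the majority in both lists.

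Pln, which encodes the pump inhibitor phospholamban, lies on chromosome 10 from 53337686 to 53345999 on the plus strand. It had 1 doxycycline peak, 81.8 kb upstream of its start. That peak was 144 bp wide (chr10:53255808-53255951) and had 7 fragments (exact 95% Poisson interval 2.81 to 14.4) at 5.85-fold with a −log10 q of 4.17, near the median of its list. Its nearest protein-coding gene was Cep85l, 17.6 kb away, whose interval lies between the peak and Pln and also covers Pln. The nearest untreated summit was 179.6 kb from Pln.

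Sln, which encodes the pump inhibitor sarcolipin, lies on chromosome 9 from 53850251 to 53853849, and at 3.60 kb it is the shortest of the 5 genes. The doxycycline list held an interval of 1215 bp beside it (chr9:53857557-53858771), with a best summit 4.46 kb from the gene at 27.8-fold, a −log10 q of 55.8 and 37 fragments (exact 95% Poisson interval 26.1 to 51.0). The untreated list held an interval of 1208 bp with the same first base (chr9:53857557-53858764), whose best summit, 3.88 kb from the gene, reached 31.2-fold with a −log10 q of 64.3 and 39 fragments (27.7 to 53.3). Sln was the closest protein-coding gene to this interval in both lists, and Slc35f2 and Elmod1 also lay within 100 kb of its best summits. The Poisson intervals of the best summits overlap.

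The Sln interval carried 4 summits in each list. Their pileups were 24, 27, 37 and 29 fragments after doxycycline. Without doxycycline they were 39, 32, 32 and 39 fragments. Taken in order of coordinate, the untreated pileups were above the doxycycline ones except at the third summit. The medians were 28 fragments after doxycycline and 35.5 without it. These counts were not scaled for library depth, so they do not show which condition had the stronger enrichment. A doxycycline summit lay a median of 65.5 bp, and at most 102 bp, from the nearest untreated one, while the best summits of the lists were at opposite sides of the interval's middle.

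Sln had 1 more peak in each list, at different places. The doxycycline peak (chr9:53936986-53937142) lay 83.2 kb from Sln inside Elmod1 and had 6 fragments at 5.12-fold. The untreated peak (chr9:53753249-53753399) lay 96.9 kb from Sln and 18.1 kb from Slc35f2, and had 7 fragments at 6.29-fold. It was the summit closest to the 100 kb limit on the inside, and the closest on the outside was the untreated summit 159 kb from Casq2.

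The intervals near Ryr2 and Sln were the widest or among the widest in the data. In the doxycycline list the Ryr2 interval ranked 1st by width and the Sln interval 5th, against a median width of 160 bp. In the untreated list they ranked 1st and 3rd, against a median of 153 bp. By fold the Ryr2 interval ranked 7th and the Sln interval 8th of 3640 doxycycline peaks, and 5th and 2nd of 4379 untreated peaks. By −log10 q they ranked 24th and 25th in the doxycycline list and 21st and 17th in the untreated list. These ranks describe intervals that were singled out for being in both lists.

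**Figure D3:**
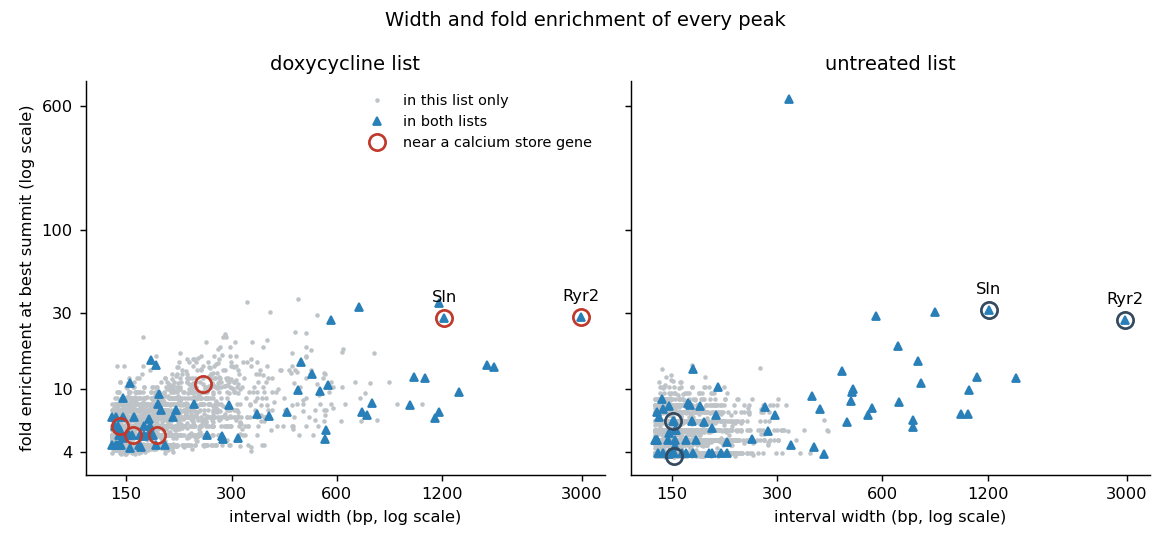
Interval width in bp (x axis, log scale) against the authors' fold enrichment at the best summit (y axis, log scale) for every peak of the doxycycline list (left) and the untreated list (right), with peaks in 1 list as grey dots, peaks in both as blue triangles and peaks within 100 kb of a calcium store gene circled. The Ryr2 interval is at the right edge of both panels, at 2989 bp and 2963 bp, and the other circled peaks except that of Sln lie among the narrow peaks.

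Intervals in both lists were rare. They made up 2.01% of the doxycycline peaks and 1.71% of the untreated peaks, and 0.448% of the 21631 genes had one within 100 kb, Ryr2 and Sln among them. The lists' intervals matched closely at these genes. Near Ryr2 the lists shared 2942 bp, which is 98.4% of the doxycycline interval and 99.3% of the untreated one, with starts 21 bp and ends 47 bp apart. Near Sln they shared 1208 bp, which is 99.4% and 100% of them, with ends 7 bp apart. The 73 doxycycline and 75 untreated peaks found in both lists made 75 overlapping pairs, since 2 doxycycline intervals each overlapped 2 untreated ones. Over these pairs the medians were 90.01% of the doxycycline interval and 97.96% of the untreated one, and 30 pairs shared at least 90% of each interval. The pairs were not spread evenly over the genome. Many lay in a single stretch of chromosome 9, with doxycycline intervals from 3000069 to 3038239, closest to Alkbh8.

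The Ryr2 and Sln intervals stood apart from the other wide ones in their local expectation, the number of fragments the peak caller expected at the summit, worked back with the pileup. At the best Ryr2 summit it was 0.381 fragments after doxycycline and 0.439 without, and at the best Sln summit 0.368 and 0.283. The most frequent value in each list, taken as its background, was 0.368 after doxycycline and 0.272 without. The Ryr2 and Sln expectations were therefore at 1.00 to 1.61 times background. Of the 75 pairs 40 had an expectation of at most 2 times background in both lists. Besides the intervals near Ryr2 and Sln, these were 38 pairs with a median width of 155 bp after doxycycline and 152 bp without it. Their widest intervals were 235 bp after doxycycline and 216 bp without it, and their highest folds 10.9 after doxycycline and 10.2 without it. The pairs of at least 1000 bp in both lists numbered 6, and the 4 others had expectations above 2 times background in both lists. Their expectations ran from 15.7 to 845 fragments after doxycycline and from 6.32 to 745 fragments without it. These others were closest to Alkbh8 or Lrrc4c. In the doxycycline list 1 more peak of at least 1000 bp had an expectation within that limit, a peak near Hes1 of 1051 bp at 8.04-fold. The limits of 1000 bp and 2 times background were set with these values in view. Whether the inputs entered the expectation is not given in the sources used here, and the origin of the 2 intervals was not tested.

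**Figure D4:**
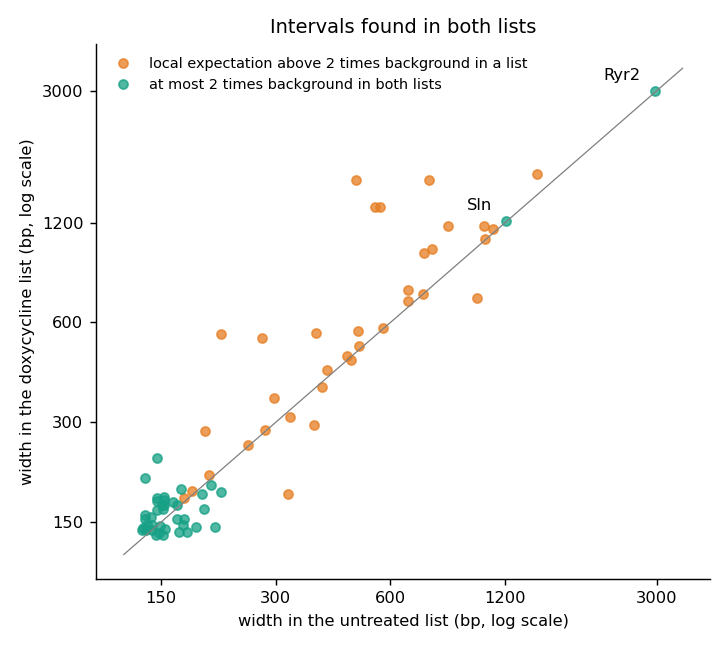
Width in the doxycycline list (y axis, bp, log scale) against width in the untreated list (x axis, bp, log scale) for the 75 pairs of overlapping intervals, coloured by whether the local expectation was above 2 times background in a list (orange) or at most 2 times background in both (green), with the line of equal width. The Ryr2 and Sln pairs lie on the line far to the right of the other green points, which do not exceed 235 bp.

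Promoter sequence was read for the 3 of the 5 genes found in the RefSeq table of promoter windows on GRCm38.p6 (250 bases before to 50 after a start), Ryr2, Casq2 and Pln. No peak of either list overlapped these windows. The GLI consensus was searched as GACCACCCA and its core as CCACCC, which is part of it, on both strands. The consensus was in none of the 3 windows and in 0.253% of all 32851 windows. The core was in the Ryr2 window and not in those of Casq2 and Pln, and 31.5% of all windows hold it. Below are the 250 bases before the start of Ryr2 (chr13:12106946-12107195, minus strand), the start that the wide interval lies upstream of, and the 250 bases before the start of Gm16160 (chr3:102203590-102203839, plus strand), a long non-coding RNA gene whose window, 131 bp from the weaker Casq2 peak, is the closest of any to a peak of the 5 genes. Capitals mark the core on either strand, which reads GGGTGG for Ryr2, 170 bases before the start, and CCACCC for Gm16160, 207 bases before it.
Ryr2: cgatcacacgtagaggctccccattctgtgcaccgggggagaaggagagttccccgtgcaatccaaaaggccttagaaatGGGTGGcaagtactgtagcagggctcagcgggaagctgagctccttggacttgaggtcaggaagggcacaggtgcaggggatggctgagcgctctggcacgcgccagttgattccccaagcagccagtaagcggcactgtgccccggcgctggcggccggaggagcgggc
Gm16160: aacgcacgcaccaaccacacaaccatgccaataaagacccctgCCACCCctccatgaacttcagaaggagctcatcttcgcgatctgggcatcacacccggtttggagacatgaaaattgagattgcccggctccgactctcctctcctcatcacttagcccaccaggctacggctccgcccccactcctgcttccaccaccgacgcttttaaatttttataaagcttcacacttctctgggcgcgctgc
A match is a stretch of letters and not a measured binding site, and the sequence under the peaks themselves was not used here.

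The reach of 100 kb favours long genes, and Ryr2 is among the longest. Of the 227 genes of 500 kb or more, 64.3% had a summit within reach after doxycycline and 78.4% without it. Among the 11655 genes under 20 kb, the class of Pln and Sln, the shares were 28.4% and 25.2%. Among the 7549 genes of 20 to 100 kb, the class of Casq2 and Atp2a2, they were 32.5% and 32.2%. Measured over its gene and flanks, Ryr2 had 1.33 doxycycline peaks and 2.65 untreated peaks per Mb, against means of 1.71 and 1.55 per Mb over all genes. Sln had 9.82 per Mb in each list, from 2 peaks each. Casq2 had 7.69 doxycycline peaks per Mb, from 2 peaks, and Pln 4.80, from 1 peak, and both genes had 0 untreated peaks. Atp2a2 had 0 peaks in both lists.

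**Figure D5:**
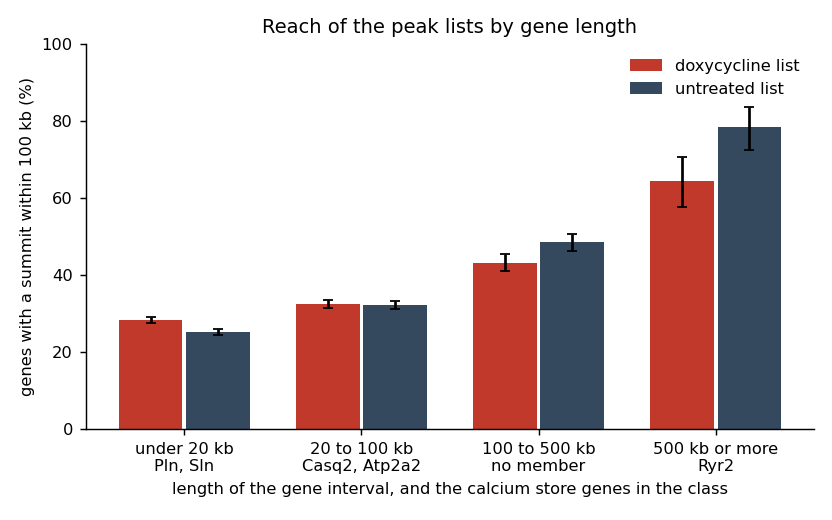
Share of protein-coding genes with a summit within 100 kb (y axis, %) by length of the gene interval (x axis, with the calcium store genes of each class named), for the doxycycline list (red) and the untreated list (dark blue), with exact 95% Clopper-Pearson intervals as error bars. The share climbs with gene length, to 64.3% and 78.4% in the class of Ryr2.

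Other genes of calcium handling were read from a list of 26 relatives and partners. A summit within 100 kb was listed after doxycycline for 14 of them (53.8%) and without it for 10 (38.5%), beside 31.7% and 30.6% of all genes, and 6 had both, 8 the doxycycline list only, 4 the untreated list only and 8 neither. None of their best peaks was an interval in both lists, and none was wider than 333 bp. The list holds many long genes, and its shares were not tested.

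Among the relatives of the 5 genes, a summit was listed for 4 of 7 after doxycycline and for 2 without it. The shares over all genes were 31.7% and 30.6%. Mrln, which encodes the pump inhibitor myoregulin of skeletal muscle, had a doxycycline peak at 8.77-fold with 11 fragments, 25.5 kb away, and an untreated peak at 3.93-fold with 4 fragments, 41.4 kb away. Ryr1, the release channel of skeletal muscle, had 3 doxycycline peaks, the strongest with 8 fragments at 6.53-fold and 57.6 kb away, and none without doxycycline. Casq1, the calsequestrin of fast skeletal muscle, had none in either list.

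Of 11 store partners, 6 were within reach of a doxycycline summit and 3 of an untreated one, beside 31.7% and 30.6% of all genes. Srl, which encodes the reticulum protein sarcalumenin, had 4 doxycycline peaks, the strongest at 6.58-fold and 17.8 kb away, and 1 untreated peak at 7.07-fold and 90.6 kb away. Calr, which encodes the calcium-binding chaperone calreticulin, had 2 doxycycline peaks, of which the stronger was enriched 6.58-fold, 71.4 kb away. Asph, whose locus also encodes the calsequestrin anchor junctin, had a doxycycline peak of 6 fragments 12.6 kb away and an untreated peak of 4 fragments 26.8 kb away. Trdn, which encodes triadin, the other anchor of calsequestrin at the release channel, had none although its gene spans 393 kb.

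At the cell surface, doxycycline summits were listed for 4 of 5 genes and untreated summits for 3. The shares over all genes were 31.7% and 30.6%, but these 5 genes are 98.4 kb to 610 kb long. Among all genes of 100 to 500 kb the shares were 43.3% after doxycycline and 48.5% without it. For genes of 500 kb or more they were 64.3% and 78.4%. Atp2b4, which encodes a calcium pump of the plasma membrane, had the strongest doxycycline peak of the list, at 9.73-fold with 13 fragments and 54.4 kb away, and an untreated peak inside the gene at 5.41-fold. Cacnb2, a subunit gene of the L-type calcium channel, had peaks inside the gene in both lists, at 6.58-fold after doxycycline and 4.72-fold without. Cacna1c, the pore subunit gene of that channel, had a doxycycline peak 68.3 kb away at 5.12-fold and 2 untreated peaks, the stronger inside the gene at 6.29-fold. Of the store refilling genes and the kinase, none of 3 was within reach of a doxycycline summit and 2 were within reach of an untreated one, of which Orai1, the entry channel that refills the store, was at 6.29-fold and 70.9 kb away.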

How the data were processed

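GLI3R ChIP-seq of mouse cardiac progenitors was analysed from 1 deposited peak list per condition. MACS2 2.1.1, Bowtie2 2.3.2 and SAMtools 1.5 are named with the build mm10, per the submitters' processing notes. No setting is given in the sources used here, nor whether inputs were used or the 2 pull-downs pooled. The fold enrichment is a ratio that the authors deposited, the −log10 p and −log10 q are deposited values, and the deposited score, 10 times −log10 q without decimals, was not analysed further. Library totals were not analysed here.

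Deposited rows with the same interval (3725 doxycycline and 4428 untreated rows in all) were joined, and the summit of highest −log10 p was kept. To recover the pileup and the local expectation, fold was taken as pileup plus 1 over expectation plus 1, and p as the Poisson chance of more fragments than the pileup. A whole number met −log10 p within 0.01 for 99.97% of doxycycline peaks, 100% of untreated peaks and 100% of 500 simulated peaks. Overlap was counted from 1 bp. Gene intervals came from a RefSeq table on GRCm38.p6, the mm10 assembly, which matched 5 of 5 genes and 26 of 26 in the calcium-handling list. Strand came from the promoter table, and exons were not analysed here. Coordinates count from 1.

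The genes and lists were chosen with earlier results of these data known. The text names all 5 genes, the gene nearest to each of their peaks, and from the calcium-handling list the genes with peaks in both lists and the 4 with the highest −log10 q per list, ties included. Casq1, Trdn, Mtr, Alkbh8, Lrrc4c and the peak near Hes1 were named after their values were seen. Alternatives changed the reach, threshold, merging, assignment and overlap rule. Poisson and Clopper-Pearson intervals cover counting error only. Python 3.11.15, scipy 1.17.1, numpy 2.4.6, matplotlib 3.10.9 and pandas 2.3.3 were used.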

Additional observations from a re-analysis of the deposited data

How the results depend on the processing

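No paired analysis was possible because the pull-downs of a condition share 1 deposited list. Of 36 alternative values, 22 stayed within 1.5 times the main count. With summits within 10 kb, the 5 genes had 1 doxycycline peak (1 gene, Sln), 2 untreated peaks (Ryr2 and Sln) and 1 interval in both lists. Within 50 kb, the doxycycline peaks numbered 3 and Pln had none. A minimum −log10 q of 5 left 3 doxycycline peaks and 2 untreated peaks, fewer by construction. With the nearest gene only, 2 doxycycline peaks at 2 genes were left, Ryr2 and Sln, because the Casq2 and Pln peaks lie closer to Vangl1 and Cep85l. With every deposited row counted, there were 17 doxycycline and 15 untreated rows, 13 of the doxycycline rows in both lists, since the Ryr2 and Sln intervals fill several rows. Without intervals present in both lists, an alternative chosen after seeing the data, 2 untreated peaks were left. With best summits within 200 bp in place of overlap, 0 peaks counted as present in both lists, since the best summits of the Ryr2 and Sln intervals differ between lists. With at least 50% of each interval shared, 2 did. Apart from the wide Ryr2 and Sln intervals and the stronger Casq2 peak, the peaks of the 5 genes rest on 4 to 7 fragments, which limits what presence or absence can show.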
